A study of Homo sapiens with 12 samples.

Results

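Solute carriers are the large superfamily of membrane proteins that move nutrients, ions, metals, vitamins and metabolites across the plasma membrane and the membranes of organelles, and their genes carry symbols that begin with SLC, a family number and a letter. The genes described here were all those with a single annotated symbol of that form, except SLC2A1, SLC7A5 and SLC3A2, which were left aside. They numbered 154 of the 8545 genes measured, in 45 families, and 151 of them are annotated as protein coding. The other 3 are the pseudogenes SLC19A4P and SLC26A10P and the antisense RNA SLC67A1-AS. Gene expression had been measured on 12 Affymetrix U133A 2.0 arrays in SNB19 and SF539, which are established lines of human glioblastoma, a malignant brain tumour. SNB19 was grown in DMEM and SF539 in MEM. Each line was transfected by lipid reagent with a scramble siRNA, with PARK2 siRNA#1 or with PARK2 siRNA#2 (siRNA1 and siRNA2 below) and collected after 48 h, and each of the 6 groups held 2 arrays. All groups had thus received a transfected siRNA, and an untransfected group was not analysed here. PARK2 encodes parkin, a ubiquitin ligase known for its part in the removal of damaged mitochondria, and its own level was not analysed here.

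Solute carriers work as facilitators, exchangers or transporters coupled to a gradient of sodium, protons or another ion, and most do not use ATP themselves. In glia and glioma cells they supply glucose, glutamine, cystine and other nutrients, clear the transmitter glutamate from the space around the cell and set ionic balance and volume. The mitochondrial family SLC25 links the matrix to the cytosol by exchanging nucleotides, phosphate and intermediates such as aspartate and glutamate.

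Values were on the log2 scale, so a difference of 1 is a 2-fold difference, and array medians lay between 5.94 and 6.14. A gene with several probe sets was represented by the one with the highest mean over all arrays. The deposited values carry no detection call, and 30 of the 154 genes had means below the lower quartile of the arrays, 3.93 to 4.02, in all 6 groups. Over all probe sets, a correlation across genes and not across samples, the replicate pairs had r of 0.991 to 0.998. The SF539 siRNA2 pair was lowest, and there the replicates of 20 of the 154 transporter genes (13% of them, and 12.6% of all genes) lay more than 0.5 apart, against 0 to 7 genes in the other groups. The 9 measured glial markers had a mean log2 value of 8.55 in SNB19 with scramble, 9.21 with siRNA1 and 9.37 with siRNA2, and of 5.67 to 5.87 in SF539. GFAP, S100B, FABP7 and PTPRZ1 were at or below the lower quartile in SF539 with scramble siRNA (3.93, 3.80, 3.79 and 2.78) and at 6.90, 7.38, 10.6 and 9.18 in SNB19, OLIG2 and NCAN read 3.37 to 4.17 in all groups, and VIM and CD44 were high in both. With siRNA1 and siRNA2 in SNB19, GFAP read 10.5 and 10.5, S100B 8.27 and 8.49, FABP7 11.7 and 12.1, and PTPRZ1 9.82 and 10.3. SOX2 was lower, at 9.11 and 9.11 against 9.52 with scramble, as was NCAN, at 3.89 and 3.83 against 4.04. The part of these markers in the SNB19 results below was not tested. Leukocyte markers averaged 4.22 to 4.28 in all groups. Separate cultures are not stated for the replicates, so the p-values measure a spread between samples that may be technical.

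With the PARK2 siRNAs, 40 of the 154 transporter genes passed the test in SNB19. Of these, 17 rose and 23 fell. The test compared the mean of both siRNAs with scramble in a limma model over all genes, with adjusted p under 0.05. The 40 genes were 26% of the transporter genes, beside 32.8% of all genes (15.5% of all genes higher and 17.4% lower), so their share lay below the background. Of the 40, 20 had several probe sets, and in 7 of these the probe sets had opposite signs. The 7 were SLC19A1, SLC25A4, SLC2A5, SLC35A2, SLC4A4, SLC6A6 and SLC7A1. The median size of change, regardless of sign, was 0.139 over the transporter genes and 0.194 over all genes. All 4 siRNA arrays were above both scramble arrays for 32 transporter genes (20.8%, beside 24.2% of all genes) and below both for 27 (17.5%, beside 26.4%). Without replicate 1 of SNB19 scramble the count was 24. With each array centred on its median, which moved the median change of all genes from -0.01 to 0.09, 65% of the called transporter genes were higher, instead of 42.5%.

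In SF539, 11 transporter genes passed, 8 of which rose and 3 of which fell. They were 7.14% of the transporter genes, beside 9.82% of all genes (5.8% higher and 4.01% lower), again below the background. The median size of change was 0.103, beside 0.131 for all genes. All 4 siRNA arrays lay above both scramble arrays for 19 genes (12.3%, beside 13.7% of all genes) and below both for 15 (9.74%, beside 14.5%). This count moved with single arrays: it was 3 and 7 without replicate 1 or 2 of scramble, 6 and 7 without replicate 1 or 2 of siRNA1, 33 and 20 without replicate 1 or 2 of siRNA2, and 7 without any 1 of the SNB19 scramble or SNB19 siRNA2 arrays. With the SF539 arrays alone it was 1. The share of higher genes was 72.7%, 61.5% after quantile normalization and 42.9% after median centring.

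**Figure D1:**
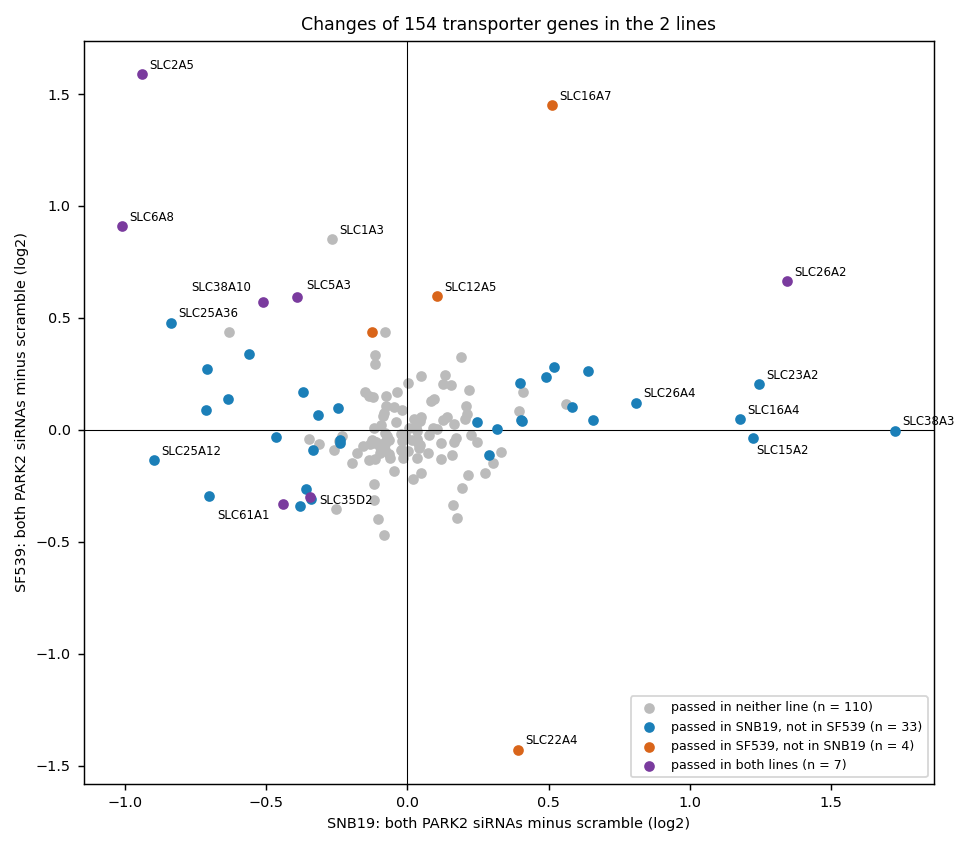
Each point is 1 of the 154 transporter genes, placed by its change in SNB19 (horizontal, log2) and in SF539 (vertical, log2), both as the mean of the PARK2 siRNAs minus scramble; colours mark the line in which it passed the test. SLC2A5, SLC6A8, SLC38A10 and SLC5A3 lie in the upper left, lower in SNB19 and higher in SF539, while SLC38A3, SLC23A2, SLC16A4 and SLC15A2 lie far to the right, between -0.03 and 0.20 in SF539.

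Of the transporter genes, 7 passed in both lines, which is 17.5% of the SNB19 calls and 63.6% of the SF539 calls. Of all genes, 4.37% passed in both lines in the same direction and 1.22% in opposite directions, and these together were 17% of the SNB19 calls and 56.9% of the SF539 calls. The transporter genes had 3 (1.95%) and 4 (2.6%), and whether these shares differ from those of all genes was not tested. SLC26A2 was higher in both, and SLC35D2 and SLC61A1 were lower in both. The other 4 fell in SNB19 and rose in SF539. These were SLC2A5, the fructose carrier GLUT5, SLC6A8, the creatine transporter, SLC5A3, a sodium-coupled carrier of the osmolyte myo-inositol, and SLC38A10, a member of the neutral amino acid family whose substrates are less well known. These 4 genes were grouped by their calls, lower in SNB19 and higher in SF539, so their common direction is the rule of choice. Their upstream sequence is shown. For each, the 250 bases before the RefSeq transcription start in GRCh38.p14 are printed from 5′ to 3′ on the gene's own strand. They are chr1:9069636-9069885 (minus strand) for SLC2A5, chrX:153687676-153687925 (plus) for SLC6A8, chr21:34073328-34073577 (plus) for SLC5A3 and chr17:81295308-81295557 (minus) for SLC38A10. Capitals mark matches to 2 searched motifs.
SLC2A5: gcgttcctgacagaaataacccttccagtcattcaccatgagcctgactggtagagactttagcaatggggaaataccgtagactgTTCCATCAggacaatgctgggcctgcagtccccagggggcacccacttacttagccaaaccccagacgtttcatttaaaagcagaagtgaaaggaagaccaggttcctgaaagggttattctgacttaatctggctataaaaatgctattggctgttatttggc
SLC6A8: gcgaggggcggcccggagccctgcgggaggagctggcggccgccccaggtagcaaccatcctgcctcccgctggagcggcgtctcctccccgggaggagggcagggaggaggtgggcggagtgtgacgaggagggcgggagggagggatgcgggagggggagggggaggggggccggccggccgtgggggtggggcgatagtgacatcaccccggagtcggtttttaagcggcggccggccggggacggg
SLC5A3: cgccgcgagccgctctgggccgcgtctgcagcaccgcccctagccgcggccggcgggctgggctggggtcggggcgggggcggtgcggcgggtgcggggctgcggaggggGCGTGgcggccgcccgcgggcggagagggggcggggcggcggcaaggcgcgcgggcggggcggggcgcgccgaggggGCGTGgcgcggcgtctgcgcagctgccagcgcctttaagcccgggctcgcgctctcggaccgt
SLC38A10: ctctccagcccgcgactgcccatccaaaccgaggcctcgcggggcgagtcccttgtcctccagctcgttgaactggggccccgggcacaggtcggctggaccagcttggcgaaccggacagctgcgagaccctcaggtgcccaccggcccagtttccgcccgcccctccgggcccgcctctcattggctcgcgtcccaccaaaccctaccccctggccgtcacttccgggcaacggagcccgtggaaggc
The motifs were ACGTG or GCGTG, the core bound by the hypoxia-inducible factors, and TGATGNAA, the core of the composite element of the stress factors ATF4 and CHOP, each searched on both strands and counted whether or not a match shared letters with another. SLC2A5 held 1 match to TGATGNAA, on the reverse strand, and SLC5A3 held 2 to GCGTG. Neither motif was found in the windows of SLC6A8 and SLC38A10. Windows of 125 of the 154 genes were available. ACGTG or GCGTG was in 68 of those 125 (54.4%) and in 43.1% of 27305 windows of the same length from all genes. It was in 7 of 15 genes that rose in SNB19 and in 9 of 18 that fell. TGATGNAA was in 6 of 125 (4.8%) and in 3.19% of all windows, in 0 of 15 genes that rose in SNB19 and in 1 of 18 that fell. These are matches of letters in a window and say nothing about binding.

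SLC6A8 had log2 values of 11.23 and 11.06 in SNB19 with scramble, 10.58 and 10.44 with siRNA1, and 9.72 and 9.79 with siRNA2. In SF539 the values were 7.42 and 7.14 with scramble, 7.92 and 8.20 with siRNA1, and 8.05 and 8.59 with siRNA2. The siRNA arrays thus lay below the scramble arrays in SNB19 and above them in SF539, with no overlap in either line. The change was -1.01 ± 0.15 in SNB19 (SE of the fit; limma adjusted p = 0.00066), a 2.01-fold fall, and 0.91 ± 0.15 in SF539 (adjusted p = 0.0058), a 1.88-fold rise. The SF539 call was lost without replicate 2 of SF539 scramble (0.77, adjusted p = 0.057) and with the SF539 arrays alone (adjusted p = 0.07). All 3 probe sets of SLC6A8 moved in these directions. Probe sets annotated to SLC6A8 and a pseudogene copy together were left out, and how far the 3 used here also read its near-identical copies was not tested.

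For SLC2A5 the values in SNB19 were 5.13 and 4.68 with scramble, 4.24 and 3.64 with siRNA1, and 3.98 and 4.00 with siRNA2, which reaches the lower quartile. In SF539 they were 5.91 and 5.26, then 6.45 and 6.86, then 7.61 and 7.79. The change was -0.94 ± 0.22 in SNB19 (limma adjusted p = 0.0095) and 1.59 ± 0.22 in SF539 (adjusted p = 0.0026), a 3.0-fold rise and the largest of any transporter gene in that line. It was the 1 call left with the SF539 arrays alone. Without replicate 1 of SNB19 scramble the SNB19 change was -0.71 (adjusted p = 0.12). The other probe set of SLC2A5 changed by 0.22 in SNB19 and 0.11 in SF539, and the mean of both gave -0.36 and 0.85.

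SLC38A10 had values of 7.95 and 7.68 with scramble against 7.23 to 7.42 with the siRNAs in SNB19, and of 7.70 and 7.47 against 7.88 to 8.54 in SF539. It fell by 0.51 in SNB19 (SE 0.13, limma adjusted p = 0.013) and rose by 0.57 in SF539 (SE 0.13, adjusted p = 0.024). For SLC5A3 the SNB19 values were 9.69 and 9.99 with scramble and 9.28 to 9.61 with the siRNAs, and the SF539 values were 8.43 and 8.60 against 8.74 to 9.62. Its changes were -0.39 ± 0.13 (adjusted p = 0.042) and 0.60 ± 0.13 (adjusted p = 0.02). In both genes the siRNA arrays did not overlap the scramble arrays, but the calls depended on single arrays. The SNB19 call of SLC38A10 was lost without replicate 1 of SNB19 scramble (-0.37, adjusted p = 0.15), and its SF539 call without replicate 1 or 2 of SF539 scramble or replicate 2 of siRNA1 (adjusted p 0.059, 0.16 and 0.074). That of SLC5A3 in SNB19 was lost in 10 alternatives, with -0.24 (adjusted p = 0.33) without replicate 2 of SNB19 scramble, and in SF539 without replicate 1 or 2 of scramble or replicate 1 of siRNA1 (adjusted p 0.15, 0.056 and 0.061). Averaged over its probe sets the SF539 change of SLC5A3 was 0.39 (adjusted p = 0.035).

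**Figure D2:**
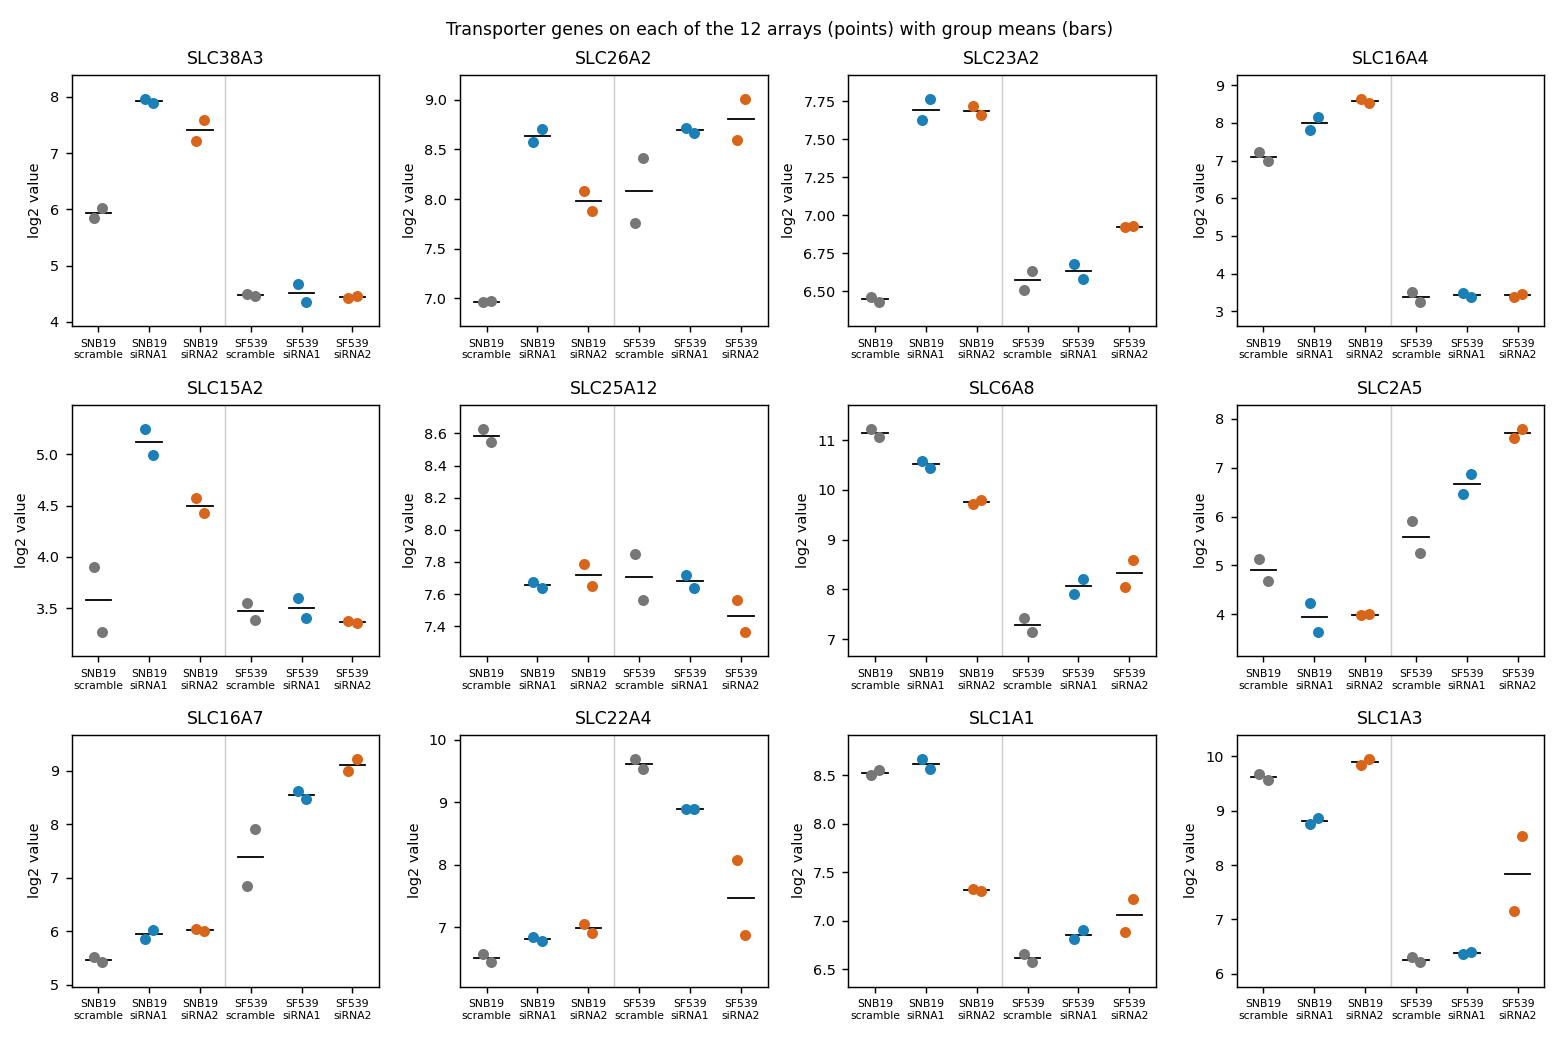
Log2 value of 12 transporter genes on each of the 12 arrays (points) with group means (bars), in the order scramble, siRNA1 and siRNA2 for SNB19 and then SF539; each panel has its own vertical axis, so levels are not comparable between genes. SLC38A3, SLC23A2 and SLC15A2 are higher on every SNB19 siRNA array and do not pass in SF539 by the mean of both siRNAs. On the probe set shown, SLC23A2 is higher in SF539 with siRNA2 (6.92 and 6.93), but its probe sets had opposite signs there. SLC6A8 and SLC2A5 move in opposite directions in the lines. The SF539 siRNA2 replicates of SLC1A3 (7.16 and 8.53) and SLC22A4 (8.07 and 6.87) lie far apart.

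Carriers of amino acids, peptides and related compounds formed the largest class, with 35 genes. In SNB19, 4 of them rose and 6 fell, and in SF539, 2 rose and 0 fell (at an unadjusted p under 0.05 in limma, 7 were higher and 2 lower in SF539, beside 13.1% and 11.9% of all genes). The largest rise of any transporter gene in SNB19 was that of SLC38A3, a sodium-coupled glutamine transporter of astrocytes and liver. Its values were 5.85 and 6.03 with scramble, 7.97 and 7.90 with siRNA1, and 7.22 and 7.59 with siRNA2. All 4 siRNA arrays lay more than 1 unit above both scramble arrays, and the change was 1.73 ± 0.12 (limma adjusted p = 4.2e-06), a 3.31-fold rise. In SF539 the 6 arrays lay between 4.36 and 4.67 in all groups, with a change of -0.0038 ± 0.12. SLC15A2, which carries small peptides, had 3.90 and 3.27 with scramble, both under the lower quartile, and 5.24, 4.99, 4.57 and 4.42 with the siRNAs in SNB19. It rose by 1.22 ± 0.16 (adjusted p = 0.00027), or at least 0.81 from that quartile, and by 0.66 averaged over its probe sets, and stayed between 3.35 and 3.60 in SF539.

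SLC7A1, the carrier of arginine and lysine CAT-1, was at 9.65 and 9.70 with scramble and at 10.29 to 10.37 with the siRNAs in SNB19. Its change was 0.66 ± 0.08 (limma adjusted p = 0.00018), and 0.23 averaged over its probe sets, 1 or more of which had the opposite sign. SLC38A6, of the same family as SLC38A3, rose by 0.49 ± 0.08 (adjusted p = 0.00077). Falling with SLC6A8 and SLC38A10 was SLC3A1, the heavy subunit of the transporter of cystine and basic amino acids, with 4.58 and 4.28 with scramble and 3.64 to 3.80 with the siRNAs. It fell by 0.71 (SE 0.14, adjusted p = 0.0027), to a level below the lower quartile (at least 0.46 down to it). Over the alternatives run, its change ranged from -0.86 to -0.49. SLC1A1, the glutamate transporter EAAT3, passed at -0.56 ± 0.10 (adjusted p = 0.0015) although the siRNAs had opposite signs, as described with the comparison between them.

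Among the 11 genes of the sugar carrier families, which also hold sodium-coupled carriers of myo-inositol, iodide and vitamins, 0 rose and 2 fell in SNB19 (SLC2A5 and SLC5A3), and the same 2 genes were those that rose in SF539, where 0 fell. At an unadjusted p under 0.05 in limma, 0 were higher and 2 lower in SNB19 (19.6% and 21.9% of all genes), and 2 higher and 1 lower in SF539. The other 9 genes of the class ranged from -0.63 (SLC2A3) to 0.19 (SLC5A6) in SNB19 and from -0.26 (SLC5A6) to 0.43 (SLC2A3) in SF539. SLC2A3, the glucose carrier GLUT3 of neurons, shares sequence with SLC2A14, and probe sets annotated to both were left out.

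The 22 genes in families of carriers of chloride, bicarbonate, sodium, calcium and other ions held 4 that rose and 1 that fell in SNB19. In SF539, 2 rose and 0 fell (unadjusted p under 0.05 in limma: 3 higher and 1 lower). Classes were set by family number, so SLC26A2 was counted here although it carries sulfate. SLC26A2, which takes up sulfate used in the sulfation of proteoglycans, had 6.97 on both SNB19 scramble arrays, 8.58 and 8.70 with siRNA1, and 8.08 and 7.88 with siRNA2. In SF539 it had 7.76 and 8.41 with scramble, 8.72 and 8.67 with siRNA1, and 8.59 and 9.01 with siRNA2. Both lines showed higher siRNA arrays without overlap, with a wide gap between the SF539 scramble arrays. The change was 1.34 ± 0.17 in SNB19 (limma adjusted p = 0.00025), a 2.54-fold rise, and 0.66 ± 0.17 in SF539 (adjusted p = 0.039). The SF539 call was lost in 13 alternatives, with 0.33 (adjusted p = 0.3) without replicate 1 of SF539 scramble.

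SLC26A4, the anion exchanger pendrin, rose in SNB19 from 3.63 and 3.82 with scramble to 4.94 and 4.88 with siRNA1 and 4.29 and 4.03 with siRNA2, a change of 0.81 ± 0.12 (limma adjusted p = 0.00048) that began below the lower quartile (at least 0.54 from that quartile). SLC24A1, a sodium, calcium and potassium exchanger known from rod photoreceptors, rose by 0.58 ± 0.14 (adjusted p = 0.0084), or by 0.23 averaged over its probe sets, and lost the call without replicate 2 of SNB19 scramble (0.45, adjusted p = 0.1). SLC4A4 also rose, but its means of 3.38 with scramble and 3.70 with the siRNAs both lay below the lower quartile. SLC12A2, the sodium, potassium and chloride cotransporter NKCC1 that sets cell volume, fell from 7.56 and 7.60 to between 6.82 and 6.92. The fall was 0.70 (SE 0.12, limma adjusted p = 0.0014). In SF539, SLC12A5, the potassium and chloride cotransporter of neurons, had 4.17 and 4.80 with scramble and 4.91 to 5.36 with the siRNAs. It passed at 0.60 ± 0.16 (adjusted p = 0.043), a call lost in 13 alternatives, with 0.28 (adjusted p = 0.31) without replicate 1 and 0.91 without replicate 2 of SF539 scramble.

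Of 14 carriers of organic acids, phosphate and sulfate, 2 rose and 1 fell in SNB19 and 1 rose and 0 fell in SF539 (unadjusted p under 0.05 in limma: 1 higher and 1 lower in SF539). SLC16A4 is a member of the monocarboxylate family whose substrates are less certain. It had 7.23 and 6.98 in SNB19 with scramble, 7.82 and 8.16 with siRNA1, and 8.64 and 8.52 with siRNA2, and rose by 1.18 ± 0.12 (limma adjusted p = 5.9e-05). The siRNA arrays lay above the scramble arrays, whereas in SF539 all arrays read between 3.25 and 3.52, below the lower quartile. SLC16A7, the high-affinity lactate and pyruvate transporter MCT2, was the second largest rise in SF539. There it had 6.84 and 7.91 with scramble, 8.62 and 8.47 with siRNA1, and 9.0 and 9.21 with siRNA2, so the siRNA arrays did not overlap a widely spaced scramble pair. The change was 1.45 ± 0.23 (adjusted p = 0.0043), a 2.73-fold rise, with 1.43 in its other probe set. It was 0.92 (adjusted p = 0.0061) without replicate 1 of SF539 scramble, and with the SF539 arrays alone the adjusted p was 0.062. In SNB19 SLC16A7 changed by 0.51 ± 0.23 (adjusted p = 0.12).

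The 25 carriers of lipids, nucleosides, vitamins and drugs held 2 that rose and 2 that fell in SNB19, and 1 of each in SF539. SLC23A2, the sodium-coupled vitamin C transporter SVCT2, had 6.46 and 6.43 with scramble in SNB19, 7.62 and 7.76 with siRNA1, and 7.72 and 7.66 with siRNA2. It rose by 1.25 ± 0.08 (limma adjusted p = 1.6e-06), a 2.37-fold rise with the same level under both siRNAs, and by 0.56 averaged over its probe sets. In SF539 it had 6.51 and 6.63, then 6.68 and 6.58, then 6.92 and 6.93, a change of 0.20 ± 0.08 (adjusted p = 0.13). With siRNA2 alone it rose there, by 0.35 ± 0.09 (adjusted p = 0.026), though its probe sets had opposite signs in that comparison. SLC19A1, the carrier of reduced folates, rose in SNB19 by 0.52 ± 0.08 (adjusted p = 0.00085), but averaged over its probe sets, which had opposite signs, by 0.12 (adjusted p = 0.25).

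SLC22A4, the ergothioneine transporter OCTN1, was the largest fall of any transporter gene in SF539. It had 9.68 and 9.54 with scramble, 8.89 and 8.88 with siRNA1, and 8.07 and 6.87 with siRNA2. Every siRNA array lay below both scramble arrays, and the change was -1.43 ± 0.25 (limma adjusted p = 0.0074), a 2.69-fold fall. Without replicate 1 of SF539 scramble it was -1.36 (adjusted p = 0.066). In SNB19 the gene read 6.57 and 6.44 with scramble and 6.79 to 7.06 with the siRNAs. SLC46A3, a lysosomal membrane carrier, rose in SF539 from 5.54 and 5.46 to 5.71 and 5.76 with siRNA1 and 6.15 and 6.14 with siRNA2, by 0.44 ± 0.09 (adjusted p = 0.013), and lost the call without replicate 1 or 2 of SF539 scramble (adjusted p 0.057 and 0.084).

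Among 18 mitochondrial carriers, 3 rose and 3 fell in SNB19. In SF539 none passed, and at an unadjusted p under 0.05 in limma 2 were higher and 1 lower there. SLC25A12 and SLC25A13 are the pair of aspartate and glutamate carriers of the malate-aspartate shuttle. SLC25A12 had 8.63 and 8.55 in SNB19 with scramble, 7.68 and 7.64 with siRNA1, and 7.79 and 7.65 with siRNA2, and fell by 0.90 (SE 0.10, limma adjusted p = 9.4e-05), a 1.86-fold fall. SLC25A13 had 9.26 and 9.18, then 9.55 and 9.57, then 9.67 and 9.68. Its change was 0.40 ± 0.06 (adjusted p = 0.001) in the opposite direction, and 0.21 ± 0.06 in SF539 (adjusted p = 0.074), the smallest p of the class there. SLC25A36, a carrier of pyrimidine nucleotides, fell in SNB19 from 10.40 and 10.47 to 9.80 and 9.78 with siRNA1 and 9.50 and 9.31 with siRNA2, by 0.84 (SE 0.21, adjusted p = 0.011), and lost the call without replicate 1 or 2 of SNB19 scramble (adjusted p 0.063 and 0.077).

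SLC25A5, the ADP/ATP carrier of dividing cells, rose in SNB19 by 0.41 ± 0.08 (limma adjusted p = 0.0031), from 12.26 and 12.17 to between 12.58 and 12.65. SLC25A4, the form of heart and muscle, changed by -0.32 ± 0.07 (adjusted p = 0.0057) on its brightest probe set, while another of its probe sets had the opposite sign. The ADP/ATP carriers resemble each other closely in sequence, and how far their probe sets read each other was not tested. SLC25A3, the mitochondrial phosphate carrier, rose by 0.25 ± 0.08 (adjusted p = 0.038).

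**Figure D3:**
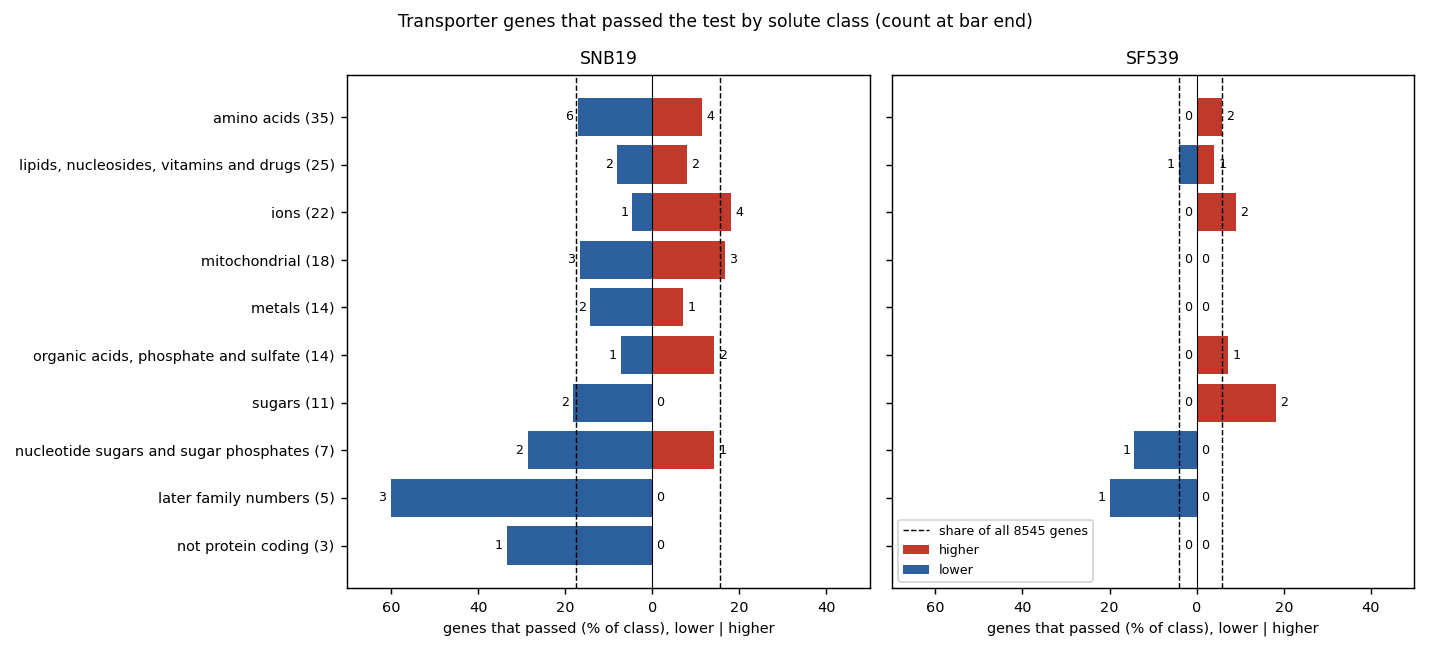
Share of each solute class (number of genes in brackets) that passed the test with the PARK2 siRNAs, lower to the left and higher to the right, in SNB19 and SF539, with the count at the end of each bar and dashed lines at the share of all 8545 genes. In SNB19 the 35 amino acid carriers had 4 higher and 6 lower and the 18 mitochondrial carriers 3 of each, and the longest bars, such as 3 of 5, belong to the smallest classes.

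Of 14 carriers of zinc, iron, copper and other metals, 1 rose and 2 fell in SNB19, and in SF539 none passed (unadjusted p under 0.05 in limma: 1 higher and 2 lower). SLC39A14, the zinc, manganese and iron importer ZIP14, had 9.87 and 9.83 in SNB19 with scramble, 9.04 and 9.16 with siRNA1, and 9.66 and 9.68 with siRNA2. All siRNA arrays were lower, those of siRNA1 by more, and the change was -0.47 ± 0.10 (limma adjusted p = 0.0041). SLC30A1, the zinc exporter of the plasma membrane, had the smallest p of the class in SF539, with 10.72 and 10.60 with scramble, 10.62 and 10.50 with siRNA1, and 10.27 and 9.89 with siRNA2, and a change of -0.34 ± 0.11 (adjusted p = 0.075).

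The 7 carriers of nucleotide sugars and sugar phosphates, which feed glycosylation in the endoplasmic reticulum and Golgi, held 1 that rose and 2 that fell in SNB19. In SF539, 1 fell and 0 rose (unadjusted p under 0.05 in limma: 0 higher and 2 lower). SLC35D1 had 8.25 and 8.15 with scramble and 8.59 to 9.0 with the siRNAs in SNB19. It rose by 0.64 ± 0.14 (limma adjusted p = 0.0052), and lost the call without replicate 2 of SNB19 scramble (0.59, adjusted p = 0.052). SLC35D2 read 9.68 and 9.64 with scramble and 9.23 to 9.38 with the siRNAs in SNB19, and 9.46 and 9.51 against 9.02 to 9.25 in SF539. It fell in both lines, by 0.34 (SE 0.08, adjusted p = 0.0086) and by 0.30 (SE 0.08, adjusted p = 0.044), the latter call being lost in 12 alternatives (all values between -0.37 and -0.25).

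The remaining 5 coding genes have family numbers given more recently to proteins of the major facilitator type and the lysosomal PQ-loop type. In SNB19, 3 of these 5 fell and 0 rose. In SF539, 1 fell and 0 rose. At an unadjusted p under 0.05 in limma 0 were higher in SNB19 and 1 in SF539. SLC67A1, formerly SLC22A18, had 8.75 and 8.59 in SNB19 with scramble, 7.83 and 7.84 with siRNA1, and 8.07 and 8.09 with siRNA2, and fell by 0.71 (SE 0.09, limma adjusted p = 0.00023). SLC67A2, also known as MFSD9, fell by 0.63 (SE 0.14, adjusted p = 0.0071), and its change ranged from -0.73 to -0.42 over the alternatives run. Its call was lost without replicate 2 of SNB19 scramble (-0.56).

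SLC61A1, the molybdate transporter MFSD5, read 8.63 and 8.49 with scramble and 8.05 to 8.19 with the siRNAs in SNB19, and 8.94 and 8.91 against 8.37 to 8.76 in SF539. It fell by 0.44 (SE 0.09, limma adjusted p = 0.0034) and by 0.33 (SE 0.09, adjusted p = 0.041). The SNB19 call was lost without replicate 1 of SNB19 scramble (adjusted p = 0.051) and the SF539 call in 12 alternatives, with values between -0.40 and -0.27. Of the 3 genes that do not code for protein, the antisense RNA SLC67A1-AS passed in SNB19 at -0.24 (limma adjusted p = 0.045), a call lost in 10 alternatives. Its gene overlaps SLC67A1 on the other strand, and how far the probe sets of the pair read each other was not tested. SLC19A4P had the smallest p of these 3 genes in SF539, at -0.24 (adjusted p = 0.32).

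The siRNAs were also compared with scramble singly, with the scramble arrays shared. In SNB19, 31 transporter genes passed with siRNA1 (20.1%, beside 26.1% of all genes) and 39 with siRNA2 (25.3%, beside 29.7%). With siRNA1, 13 were higher and 18 lower (12.4% and 13.7% of all genes), and with siRNA2, 20 were higher and 19 lower (13.9% and 15.8%). Under median centring the share of higher genes went from 41.9% to 63.3% for siRNA1 and from 51.3% to 68.4% for siRNA2. The siRNA1 count was 17 and 20 without replicate 1 or 2 of SNB19 scramble and 14 without replicate 2 of siRNA1. The siRNA2 count was 25 without replicate 1 of scramble and 22 and 21 without replicate 1 or 2 of siRNA2. SLC38A3 changed by 1.99 with siRNA1 and 1.47 with siRNA2, SLC23A2 by 1.25 and 1.24, and SLC25A12 by -0.93 and -0.87.

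In SF539, 2 transporter genes passed with siRNA1, both higher (1.3%, beside 2.73% of all genes, 1.61% higher and 1.11% lower), and 25 with siRNA2 (16.2%, beside 15.2%). Those that passed with siRNA1 were SLC6A8 at 0.78 and SLC16A7 at 1.17, and with siRNA2 these genes changed by 1.04 and 1.73. Of the 25, 16 were higher and 9 lower (8.66% and 6.5% of all genes), and under median centring the share of higher genes went from 64% to 52%. The siRNA1 count fell to 0 without any 1 of the 6 SNB19 arrays, of the 2 siRNA1 arrays or without replicate 1 of SF539 scramble. It was 4 without replicate 2 of SF539 scramble and 8 without either siRNA2 array. The siRNA2 count was 8 and 16 without replicate 1 or 2 of SF539 scramble, and 47 without replicate 1 of siRNA2.

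Set directly against each other, which uses no scramble array, siRNA2 and siRNA1 differed in SNB19 for 11 transporter genes (7.14%, beside 6.06% of all genes), 6 higher and 5 lower with siRNA2 (3.08% and 2.98% of all genes). SLC1A1, the glutamate and cysteine transporter EAAT3, had 8.51 and 8.55 with scramble, 8.67 and 8.57 with siRNA1, and 7.33 and 7.30 with siRNA2. It thus stood at the scramble level with siRNA1 and well below it with siRNA2, a difference of -1.30 ± 0.11 (limma adjusted p = 0.00018), or -0.70 averaged over its probe sets. SLC46A3 had 7.01 and 7.0 with scramble, 6.35 and 6.36 with siRNA1, and 7.55 and 7.26 with siRNA2, so the siRNAs lay on either side of scramble. The difference was 1.05 ± 0.10 (adjusted p = 0.00032). Of the 11, these were the 2 genes whose calls held under every alternative run.

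SLC2A3 had the widest gap, with 7.98 and 7.80 with siRNA1 and 6.05 and 6.20 with siRNA2, beside 7.68 and 7.60 with scramble. The difference was -1.76 ± 0.36 (limma adjusted p = 0.02), and it was lost without any 1 of the 4 SNB19 siRNA arrays (adjusted p 0.099 to 0.15). SLC7A11, the cystine and glutamate exchanger xCT, had 10.67 and 10.69 with scramble, 10.27 and 10.19 with siRNA1, and 10.86 and 10.92 with siRNA2, a difference of 0.66 ± 0.11. It too was lost without any 1 of those arrays (adjusted p 0.062 to 0.085). The other 7 were SLC6A8 (-0.76), SLC26A4 (-0.75) and SLC39A7 (-0.36), lower with siRNA2, and SLC38A6 (0.42), SLC39A14 (0.57), SLC16A4 (0.59) and SLC30A9 (0.65), higher. Each of these lost its call without 3 or 4 of the SNB19 siRNA arrays. The count of 11 was 2 and 4 without replicate 1 or 2 of siRNA1, 3 and 2 without replicate 1 or 2 of siRNA2, and 21 without either SF539 siRNA2 array.

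In SF539 the siRNAs differed for 5 transporter genes (3.25%, beside 2.72% of all genes), 4 higher and 1 lower with siRNA2 (1.84% and 0.878% of all genes). SLC1A3, the glial glutamate transporter EAAT1, had 6.31 and 6.22 with scramble, 6.36 and 6.40 with siRNA1, and 7.16 and 8.53 with siRNA2. Both siRNA2 arrays were higher, by unequal amounts, and the difference was 1.46 ± 0.32 (limma adjusted p = 0.048). SLC22A4 differed by -1.41, SLC38A6 by 0.42, SLC4A7, a sodium bicarbonate cotransporter, by 0.55 (0.08 averaged over its probe sets, with opposite signs), and SLC7A7, a light subunit of an exchanger of basic amino acids, by 0.96. Without replicate 1 or 2 of SF539 siRNA2 the difference was 2.15 or 0.78 for SLC1A3 and -2.02 or -0.81 for SLC22A4. The SF539 siRNA2 group holds the replicate pair that lay farthest apart, and its part in these differences was not tested. The 5 calls had adjusted p of 0.036 to 0.048 and all were lost with the SF539 arrays alone. The count was 1 without either SNB19 scramble array, 2 without either SF539 scramble array, 0 without any 1 of the SNB19 or SF539 siRNA arrays other than SF539 siRNA2, and 45 without replicate 1 of SF539 siRNA2. Of the calls, 80% were higher, and 50% (1 of 2) under median centring.

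**Figure D4:**
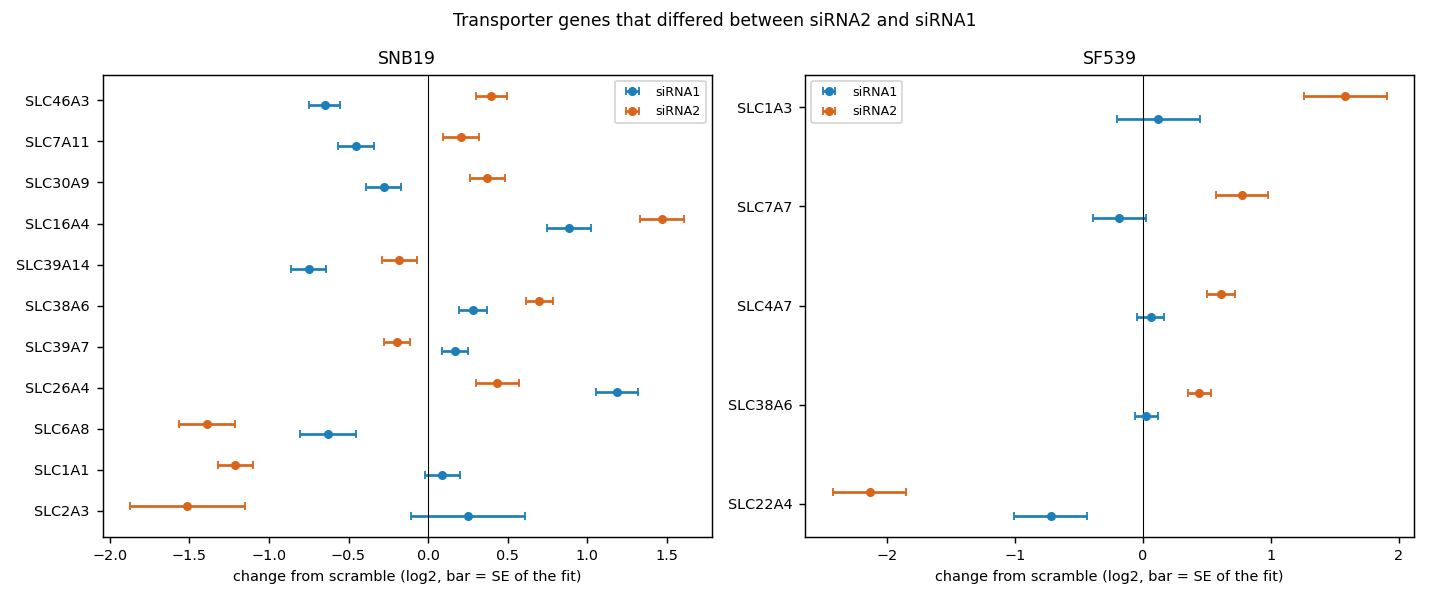
Change from scramble (log2, horizontal) with siRNA1 and siRNA2 for the 11 transporter genes that differed between the siRNAs in SNB19 and the 5 in SF539; bars are the SE of the fit. In SNB19, SLC1A1 is near 0 with siRNA1 and at -1.21 with siRNA2, and SLC46A3 lies on opposite sides of 0 (-0.65 and 0.40).

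With scramble siRNA the lines themselves differed in 57 transporter genes, 29 higher and 28 lower in SF539 than in SNB19 (24.6% and 24.7% of all genes). These were 37% of the transporter genes, beside 49.3% of all genes, and the median size of difference was 0.228, beside 0.319. Under median centring, after which the median difference over all genes was 0.21 in place of 0.04, 71.2% of the called genes were higher, instead of 50.9%. At least 2-fold differences were called for 23 transporter genes, 11 higher and 12 lower (7.14% and 7.79%, beside 6.78% and 10.1% of all genes). The lines were grown in different media, and line and medium cannot be told apart here.

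SLC43A3, a carrier of purine nucleobases in a family of amino acid carriers, had the largest difference, with 3.60 and 3.95 in SNB19 and 9.70 and 9.48 in SF539. The difference was 5.82 ± 0.19 (limma adjusted p = 5.5e-09), and it ranged from 3.94 to 5.99 over the alternatives run. Both SNB19 values lay under the lower quartiles of their arrays, so on this probe set the size is a lower limit. It is at least 48.3-fold there when SNB19 is set at those quartiles. SLC43A3 remained within 9.61 to 9.76 in SF539 and 3.86 to 4.47 in SNB19 with the PARK2 siRNAs. SLC22A4 followed at 3.11, and its neighbour in family, SLC22A5, the carnitine transporter OCTN2, differed in the other direction at -1.73. SLC4A4, a sodium bicarbonate cotransporter of astrocytes and kidney, was higher in SF539 by 2.15 (0.49 averaged over its probe sets, and at least 1.54 with SNB19 at the lower quartile), SLC39A14 by 1.93, SLC16A7 by 1.91 and SLC7A1 by 1.66 (1.04 averaged over its probe sets). SLC31A2, a protein of copper handling, SLC26A2, SLC33A1, which carries acetyl-CoA into the endoplasmic reticulum, and SLC25A46, of the outer mitochondrial membrane, were higher by 1.02 to 1.33.

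Lower in SF539 were SLC6A8 by 3.86, a 14.6-fold difference, and SLC16A4, at 7.23 and 6.98 in SNB19 and 3.52 and 3.25 in SF539. The latter values are under the lower quartiles, and the difference was at least 8.6-fold when SF539 is set at them. The glutamate transporters SLC1A3 and SLC1A1 differed by -3.36 (limma adjusted p = 1.4e-05) and -1.91 (-1.08 as the mean of probe sets). SLC1A3 read 9.68 and 9.56 in SNB19 and 6.31 and 6.22 in SF539. GFAP, S100B, FABP7, SOX2 and PTPRZ1 were also lower in SF539, whereas VIM, CD44, OLIG2 and NCAN lay within 0.21 of their SNB19 means, and the part of these markers in this difference was not tested. SLC25A4 (-1.52), SLC46A3 (-1.50), SLC38A3 (-1.46), SLC5A3 (-1.33) and SLC3A1 (-1.12) completed the 10 largest differences in this direction. For SLC25A4 and SLC3A1 the mean of probe sets gave -0.78 and -0.60, and with SF539 at the lower quartile SLC3A1 differed by at least 0.43. The calls of these 20 genes held under every alternative run.

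**Figure D5:**
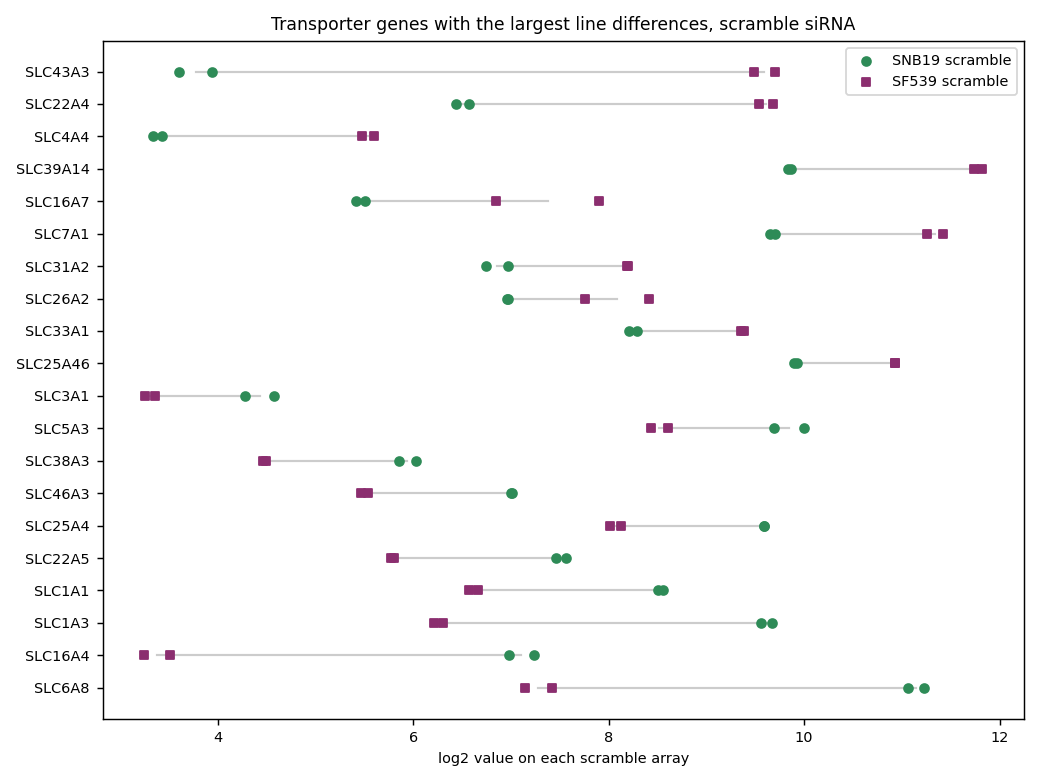
Log2 values on the scramble arrays of SNB19 (green circles) and SF539 (purple squares) for the 10 transporter genes with the largest called difference in each direction; grey lines join the group means. The rows from SLC43A3 to SLC25A46 are higher in SF539 and those from SLC3A1 to SLC6A8 lower, with no overlap between the lines in any of the 20, and levels are not comparable between genes.

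Whether the lines responded differently was tested as the SF539 change minus the SNB19 change. It differed for 25 transporter genes (16.2%, beside 19.1% of all genes), 14 with a higher and 11 with a lower value in SF539 (10.8% and 8.3% of all genes). Under median centring, which moved the median of all genes to -0.17, 30.3% were higher, instead of 56%. The count was 16 without replicate 2 of SNB19 scramble and 42 without replicate 1 of SF539 siRNA2. The 4 genes that moved in opposite directions were among the 25, with differences of 2.53 for SLC2A5 (limma adjusted p = 0.0005), 1.92 for SLC6A8 (0.00023), 1.08 for SLC38A10 (0.003) and 0.99 for SLC5A3 (0.0047). They had been chosen by opposite calls on the same arrays, so their positive differences are not separate evidence. For SLC2A5 the mean of probe sets gave 1.21. SLC25A36 differed by 1.32 (adjusted p = 0.012), falling in SNB19 and reading 9.52 and 10.48 with scramble and 10.40 to 10.57 with the siRNAs in SF539. It was 0.83 without replicate 1 of SF539 scramble and lost its call without replicate 2 of SNB19 scramble (adjusted p = 0.0501). SLC3A1 differed by 0.98, or 0.51 (adjusted p = 0.054) averaged over its probe sets. It read below the lower quartile with scramble in SF539 (mean 3.31) and with the siRNAs in SNB19 (mean 3.72), where the values carry little signal.

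On the other side, some genes that rose in SNB19 had negative differences. These included SLC38A3 at -1.73 (limma adjusted p = 9.7e-05), SLC15A2 at -1.26 (0.004), SLC16A4 at -1.13 (0.0016) and SLC23A2 at -1.04 (0.00013). SLC16A4 and SLC15A2 read below the lower quartile on every SF539 array, where the values carry little signal. By the mean of probe sets SLC15A2 and SLC23A2 differed by -0.64 and -0.56. SLC22A4, which fell in SF539, differed by -1.82 (0.0061). SLC26A4 differed by -0.69 (0.016) and lost its call without replicate 1 of SNB19 scramble (-0.60, 0.084) or replicate 2 of SF539 scramble (-0.54, 0.067). SLC16A7 passed in SF539 and not in SNB19, and the difference itself did not pass (0.94, adjusted p = 0.07). SLC26A2 rose in both lines, and its rises of 1.34 and 0.66 differed by -0.68 (adjusted p = 0.08).

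Transport genes with other symbols were counted beside the solute carriers. The list held ABC transporters, SLCO carriers, subunits of the sodium pump, the mitochondrial pyruvate carrier and chaperones or regulators of carriers, and 46 of its 62 genes were measured. In SNB19, 16 passed (34.8%, beside 32.8% of all genes), 7 higher and 9 lower, and in SF539, 7 passed (15.2%, beside 9.82%), 4 higher and 3 lower. The largest change was in TAP1 and TAP2, which carry peptides for antigen presentation. TAP1 read 11.93 and 11.79 in SNB19 with scramble and 7.90 to 8.49 with the siRNAs, a change of -3.69 (limma adjusted p = 1.9e-09). TAP2 changed by -3.22 (-1.53 averaged over its probe sets) in SNB19 and by -0.63 (-0.37) in SF539. ABCC4, an exporter of cyclic nucleotides and drugs, rose by 0.89 in SNB19. In SF539 ABCB6, a transporter linked to porphyrins, rose by 0.68 (0.27 averaged over its probe sets), and NHERF1, a scaffold of apical transporters, by 0.54, a call lost without replicate 2 of SF539 scramble (adjusted p = 0.1). The SF539 count of 7 was 3 without either SF539 scramble array or replicate 2 of siRNA1, and 12 without either siRNA2 array.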

How the data were processed

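Biotin-labelled RNA of SNB19 and SF539 cells was hybridised to 12 Affymetrix U133A 2.0 arrays, per the labels' protocols. Values were deposited by the authors as log2, between 2.01 and 14.1, and Partek is the tool named in the submitters' processing notes. How background was corrected and arrays were normalized and summarised, and on which genome build, is not given in the sources used here. The table held 16376 probe sets, 14038 of them with 1 gene, 792 with several, which were given no name, and 1546 with none. Symbols of 14028 were updated through the RefSeq table of assembly GRCh38.p14, whose coordinates were used for promoter windows alone. Each of 8545 genes took its brightest probe set, and 57 of the 154 transporter genes had several.

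With limma 3.58.1 in R 4.3.3, lmFit and eBayes fitted 6 group means to the 12 arrays (6 residual and 3.65 prior degrees of freedom), with two-sided tests and Benjamini-Hochberg adjustment over all genes at 0.05. Errors are standard errors of the fit. The test was run on simulated data with known changes. The number of arrays, 2 in each group, limits the precision. Genes named are the called ones with the same sign for both siRNAs and the 12 largest changes each way in each line, the 10 largest each way between lines, the 6 largest each way between siRNAs and in the difference of responses, the smallest p in each solute class and the 3 smallest p of the other transport list. Other members were named after their values were seen, among them SLC1A1 and SLC25A3 in SNB19, SLC25A4 with the PARK2 siRNAs, SLC2A3 and SLC5A6 within their class, and SLC16A7 and SLC26A2 in the difference of responses. The transporter genes, their solute classes and all lists were chosen with earlier results of these data known.

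The alternatives were median centring, quantile normalization, a block for the replicate number, each line fitted alone, array weights, the mean over probe sets, and a fit without the dimmest 40% of genes (75 of the 154 stayed). Every array was also left out in turn, and the array left single in its group was taken to vary as the rest do. Replicate numbers did not pair the arrays: deviations from group means correlated between same-numbered arrays with r from -0.18 to 0.109 over 15 pairs of groups, 1 of them above 0.1. Promoter sequences are those of RefSeq. The lower quartile of each array, used as the lowest level a lower limit is set against, was chosen after the values were seen. Plots used matplotlib 3.10.9.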

Additional observations from a re-analysis of the deposited data

Results flagged for a closer look

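The change with the PARK2 siRNAs differed between SF539 and SNB19 for 25 of the 154 transporter genes by the test of the difference itself (limma, adjusted p under 0.05, SF539 change minus SNB19 change, log2; 19.1% of all genes passed). Those with opposite calls in the lines were SLC2A5 (2.53), SLC6A8 (1.92), SLC38A10 (1.08) and SLC5A3 (0.99). Other genes fell in SNB19 and did not pass in SF539 by the mean of both siRNAs. Among them were the mitochondrial carriers SLC25A36 (1.32), SLC25A12 (0.76) and SLC25A4 (0.39) and the amino acid carriers SLC3A1 (0.98) and SLC1A1 (0.90). The major facilitator genes SLC67A1 (0.80) and SLC67A2 (0.77) and the nucleoside carrier SLC29A2 (0.54) were also among them. SLC1A1 had opposite signs with the siRNAs in SNB19, and it rose in SF539 with siRNA2, where its probe sets had opposite signs. SLC3A1 read below the lower quartile with scramble in SF539 and with the siRNAs in SNB19. Positive differences were also found for the lysosomal carrier SLC46A3 (0.56) and the bicarbonate cotransporter SLC4A7 (0.45). SLC46A3 rose in SF539, and in SNB19 it passed in opposite directions with siRNA1 (-0.65) and siRNA2 (0.40). SLC4A7 passed in neither line by the mean of both siRNAs. With siRNA2 alone it rose in SF539, where its probe sets had opposite signs. Among the 25, SLC4A7, SLC2A5 and SLC7A1 had probe sets of opposite sign in this difference.

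Of the 16 genes that rose in SNB19 and did not pass in SF539 by the mean of both siRNAs, 8 had a called difference, negative in each. The difference subtracts the SNB19 rise by which the 16 were chosen, so the choice itself favours this sign. No share of all genes chosen in the same way is given beside it. The 8 were SLC38A3 (-1.73), SLC15A2 (-1.26), SLC16A4 (-1.13), SLC23A2 (-1.04), SLC26A4 (-0.69), SLC7A1 (-0.61), SLC17A4 (-0.40) and SLC25A5 (-0.37). SLC17A4, SLC15A2 and SLC16A4 read below 4 on all SF539 arrays. SLC22A4 (-1.82) fell in SF539. The retinal glutamate transporter SLC1A7 (-0.57) and the zinc exporter SLC30A1 (-0.50) passed in neither line by the mean of both siRNAs.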

How the results depend on the processing

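Of 93 values for named genes, 90 were called, 51 of these calls held under all alternatives run, and 0 changed sign under any. With the replicate block the counts of called transporter genes were 38 for SNB19, 14 for SF539, 56 between lines, 24 for the difference of responses and 10 between siRNAs in SNB19. They were 0 for siRNA1 alone and 2 between siRNAs in SF539, and the numbers do not pair the arrays. With the arrays of 1 line alone, SF539 had 1 called gene (0 with siRNA1, 5 with siRNA2, 0 between siRNAs, 1 in the other transport list), and SNB19 had 21 between siRNAs. Array weights, which set the SF539 siRNA2 arrays to 0.254, gave 7 in SF539 (6 with siRNA2, 0 between siRNAs) and 23 between siRNAs in SNB19. Leaving out the dimmest 40% gave 17 in SF539 and 9 between siRNAs there, among the 75 transporter genes that stayed and not among all 154. The share of all genes that passed under the alternatives is not given here. A shift in these counts therefore cannot be told from a shift over all genes. For siRNA1 in SF539 quantile normalization gave 0, median centring 1 and the mean of probe sets 1, and centring gave 2 between siRNAs in SF539. Fits of 1 line alone use fewer arrays and the fit without dim genes fewer genes, and the cause of these shifts was not tested. Leaving out 1 array gave 24 to 49 genes in SNB19 (14 to 42 with siRNA1, 21 to 50 with siRNA2, 2 to 21 between siRNAs) and 3 to 33 in SF539 (0 to 8 with siRNA1, 8 to 47 with siRNA2, 0 to 45 between siRNAs). It gave 16 to 42 for the difference of responses and 3 to 12 in the SF539 count of the other transport list. Counts between lines and SNB19 counts of both siRNAs moved by less than 1.5 times under the other settings. There is no detection call, and the changes of the 30 genes with means below the lower quartile in all groups carry little signal.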
